A study of Mus musculus with 9 samples.

Results

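Aminopeptidase A, the product of Enpep, was examined together with 5 further genes that supply, act on or receive angiotensin peptides: Agtr1a, Agtr2, Agt, Ace and Anpep. All probe sets annotated to one of these symbols alone were taken, which gave 7 probe sets for 6 genes, 2 of them for Ace, out of 45037 probe sets and 18193 genes on the array. The genes were chosen with the differences on these same arrays already known, above all the low Enpep signal with TGF-β1. Their values in all 3 comparisons are therefore a description with errors and intervals, and no p value is given for them. P values are given only for genes outside this set, and how many of the set passed the same threshold is stated once, as a description.

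The 9 samples were RNA from cultures of mouse sclerotome, read on Affymetrix mouse genome arrays. Sclerotome is the part of the somite that gives rise to the vertebrae and intervertebral discs. The tissue was taken at E11.5 from the region ventral to the neural tube, without the notochord, and grown in micromass culture, in which a dense drop of mesenchymal cells is plated. Each of the 3 groups had 3 arrays, numbered 1 to 3: untreated cultures, cultures with 50 ng/ml BMP4 and cultures with 5 ng/ml TGF-β1, both factors for 8 hours. The study describes its cultures as set up on 3 separate occasions. All groups shared the medium with serum and ascorbic acid, and 50 ng of total RNA per sample was amplified before labelling. The treatment notes have the factors added after a night in culture and the growth notes have them in the medium given about 1 hour after plating, and which held for these arrays is not known. The study describes the embryos used for these cultures as wild type. The sources used here do not give the strain or the number of embryos per culture. The deposited log2 signals had been centred, so that each probe set has a median of 0 over the 9 arrays. A value of 1 is thus a signal 2-fold above that probe set's own median, whether a gene was expressed above background cannot be judged, and levels of different genes cannot be compared. For the same reason the markers of sclerotome could be followed between groups but not used to check the tissue label.

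Angiotensinogen, encoded by Agt, is cut by renin and then by angiotensin-converting enzyme, encoded by Ace, to give angiotensin II. Aminopeptidase A is a zinc enzyme of the cell surface that removes the first, acidic residue of angiotensin II to give angiotensin III, and aminopeptidase N, encoded by Anpep, removes the next residue. Angiotensin II acts through the type 1 receptor, which in mice is encoded mainly by Agtr1a and raises vascular tone and cell growth, and through the type 2 receptor encoded by Agtr2, which is known for its high expression in fetal mesenchyme.

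The 250 bases before the annotated start are shown for 3 genes that illustrate different orders of the groups: Enpep, lowest with TGF-β1, Agtr2, which followed the same order, and Anpep, low with BMP4 alone. They were read from RefSeq promoter sequences of build GRCm38.p6, which held 5 of the 6 genes (not Agtr1a). Enpep lies at chr3:129332750-129332999 on the minus strand, Agtr2 at chrX:21484374-21484623 on the plus strand and Anpep at chr7:79848211-79848460 on the minus strand. Each is written 5′ to 3′ toward the start, and capitals mark matches to the motifs searched on both strands: CAGAC (reverse GTCTG), a short Smad-binding sequence, GGCGCC, bound by Smads of the BMP branch, and TATAAA (reverse TTTATA), a form of the TATA box. Only these exact letters were searched, so other forms of the TATA box are not marked.
Enpep: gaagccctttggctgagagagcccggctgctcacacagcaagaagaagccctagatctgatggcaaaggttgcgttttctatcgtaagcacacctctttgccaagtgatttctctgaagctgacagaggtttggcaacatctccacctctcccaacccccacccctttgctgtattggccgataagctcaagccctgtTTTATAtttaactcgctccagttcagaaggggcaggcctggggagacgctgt
Agtr2: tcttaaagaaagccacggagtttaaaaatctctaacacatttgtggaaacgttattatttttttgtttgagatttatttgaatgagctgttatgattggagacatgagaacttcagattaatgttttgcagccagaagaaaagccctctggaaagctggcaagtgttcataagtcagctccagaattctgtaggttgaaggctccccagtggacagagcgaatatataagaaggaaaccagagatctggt
Anpep: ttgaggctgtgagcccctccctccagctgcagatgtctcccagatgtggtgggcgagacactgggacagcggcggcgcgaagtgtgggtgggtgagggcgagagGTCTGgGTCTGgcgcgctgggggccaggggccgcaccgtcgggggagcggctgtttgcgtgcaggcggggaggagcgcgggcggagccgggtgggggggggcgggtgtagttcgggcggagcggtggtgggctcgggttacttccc
The Enpep window held a single match, TTTATA at position -52 counted from the start, and neither CAGAC nor GGCGCC. The Agtr2 window held none of the 3 motifs as searched, and the Anpep window held GTCTG at -146 and -140. Near its end the Agtr2 window reads tatataag, a TATA-like string that the search did not cover. Among the 32851 promoters of the table, windows of the same length held CAGAC in 42.2%, GGCGCC in 9.59% and TATAAA in 12.4%, and 11.7% held CAGAC at least 2 times. G and C made up 52.4% of the Enpep window, the same as the median promoter, against 38.4% for Agtr2 and 72.8% for Anpep. These matches are descriptions of the letters in the windows, and no binding was measured.

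Enpep had the widest range of the set, 3.98 log2 units over the 9 arrays, and its variance was higher than that of 99.96% of all probe sets. The untreated arrays 1, 2 and 3 stood at 1.24, 2.38 and 1.26 (centred log2 signal). With BMP4 the values were 0.0060, 0 and -0.35, and with TGF-β1 they were -1.60, -1.37 and -1.44. The 3 groups formed 3 levels without overlap: untreated highest, BMP4 between and TGF-β1 lowest. The spread was largest among the untreated arrays, where array 2 lay about 1 log2 unit above the others. Group means were 1.63 ± 0.65 untreated, -0.12 ± 0.21 with BMP4 and -1.47 ± 0.12 with TGF-β1 (SD, n = 3 each).

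**Figure D1:**
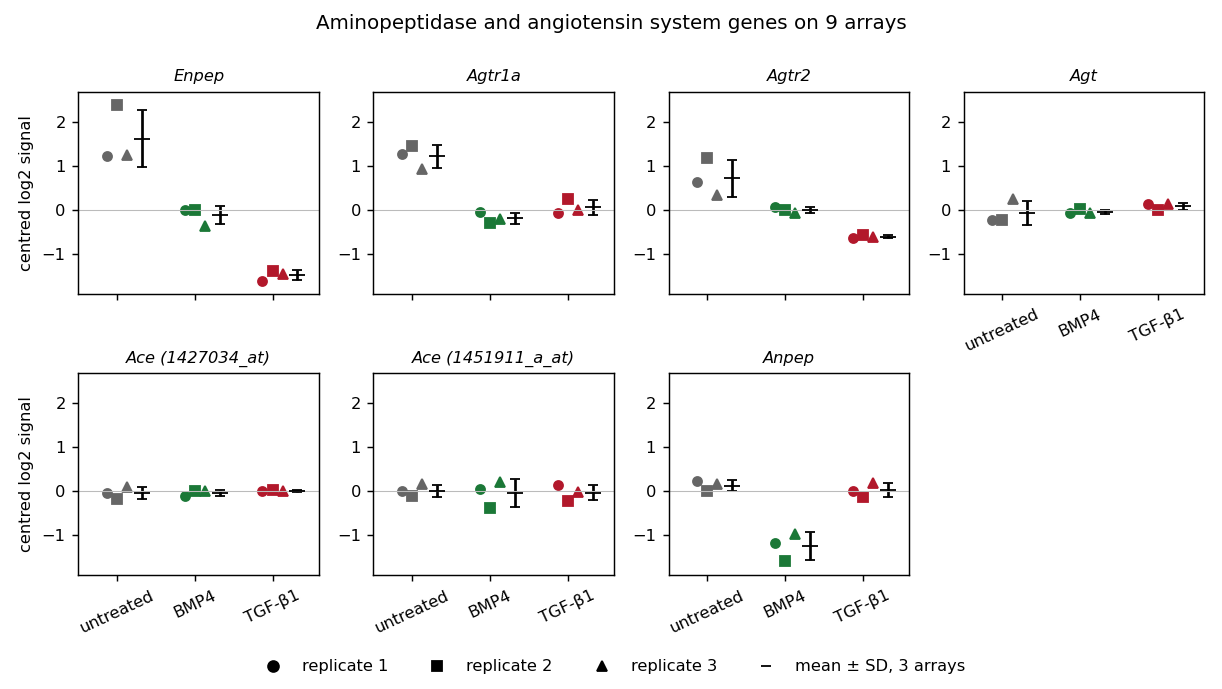
Centred log2 signal (y axis, each probe set's median over 9 arrays set to 0) of the 7 probe sets by treatment (x axis), with 1 point per array, shaped by replicate number, and bars for the mean ± SD of 3 arrays. Enpep falls into 3 levels, Agtr1a is high only in untreated cultures, Agtr2 follows the order of Enpep over a smaller range, Anpep is low with BMP4, and Agt and both Ace probe sets lie near 0 throughout.

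Relative to untreated cultures, Enpep signal was 8.57-fold lower with TGF-β1, a log2 difference of -3.10 ± 0.26 (SE from limma, 95% interval -3.68 to -2.52). It was 3.35-fold lower with BMP4, at -1.74 ± 0.26 (interval -2.32 to -1.16). Between the factors, TGF-β1 cultures were 2.56-fold below BMP4 cultures, at -1.36 ± 0.26 (interval -1.94 to -0.77). The same order held within each replicate number, where TGF-β1 minus untreated ran from -3.75 to -2.70, BMP4 minus untreated from -2.38 to -1.23 and TGF-β1 minus BMP4 from -1.61 to -1.09. Without untreated array 2 the differences were -2.72 with TGF-β1 and -1.37 with BMP4. In RNA from whole cultures, fewer cells of a type and less RNA per cell cannot be told apart. The comparisons with untreated cultures share their 3 control arrays.

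Anpep showed another order. Untreated arrays stood at 0.23, 0 and 0.17, BMP4 arrays at -1.18, -1.59 and -0.96, and TGF-β1 arrays at 0.017, -0.13 and 0.19. The BMP4 arrays were lowest and lay apart from the other 6, while untreated and TGF-β1 arrays overlapped. The difference was -1.37 ± 0.15 with BMP4 (2.59-fold lower, interval -1.71 to -1.04) and -0.10 ± 0.15 with TGF-β1 (interval -0.44 to 0.23). TGF-β1 cultures were 2.41-fold above BMP4 cultures, at 1.27 ± 0.15 (interval 0.93 to 1.60). The genes of both surface aminopeptidases thus had lower signal with BMP4, and with TGF-β1 that held for Enpep, whereas the interval for Anpep included 0.

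Ace was read by 2 probe sets. The first ranged over 0.28 log2 units and the second over 0.60, and on both the arrays of every pair of groups overlapped. Their differences in the 3 comparisons lay between -0.055 and 0.051, with intervals reaching from -0.40 to 0.35. For the second probe set 72.9% of the variance lay between the replicate numbers and 1.84% between the treatments. The intervals of the first probe set were narrower, from -0.18 to 0.24.

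Agt, the only source of angiotensin peptides, also stayed close to its median. Untreated arrays stood at -0.23, -0.22 and 0.25, BMP4 arrays at -0.062, 0.019 and -0.051, and TGF-β1 arrays at 0.13, 0 and 0.15. The groups overlapped in each comparison. The differences were 0.035 ± 0.12 with BMP4 (interval -0.24 to 0.31), 0.16 ± 0.12 with TGF-β1 (interval -0.11 to 0.43) and 0.13 ± 0.12 between the factors (interval -0.15 to 0.40).

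The type 1 receptor gene Agtr1a was high in untreated cultures alone. Its untreated arrays stood at 1.27, 1.46 and 0.93, against -0.043, -0.29 and -0.20 with BMP4 and -0.066, 0.26 and 0 with TGF-β1. All 3 untreated arrays lay above all 6 treated arrays, and the treated groups overlapped. Agtr1a was 2.64-fold lower with BMP4, at -1.40 ± 0.14 (interval -1.71 to -1.09), and 2.23-fold lower with TGF-β1, at -1.16 ± 0.14 (interval -1.47 to -0.85). TGF-β1 minus BMP4 was 0.24 ± 0.14 (interval -0.069 to 0.55).

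The type 2 receptor gene Agtr2 had the order of Enpep over a narrower range. Its untreated arrays stood at 0.64, 1.18 and 0.35, its BMP4 arrays at 0.085, 0 and -0.062 and its TGF-β1 arrays at -0.63, -0.56 and -0.61. None of the groups overlapped, and untreated array 2 was again the highest. The difference was -0.72 ± 0.17 with BMP4 (1.64-fold lower, interval -1.09 to -0.34) and -1.32 ± 0.17 with TGF-β1 (2.50-fold lower, interval -1.70 to -0.94). TGF-β1 cultures lay 1.52-fold below BMP4 cultures, at -0.61 ± 0.17 (interval -0.98 to -0.23). The receptors thus differed in their order: BMP4 and TGF-β1 arrays overlapped for Agtr1a and were apart for Agtr2.

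**Figure D2:**
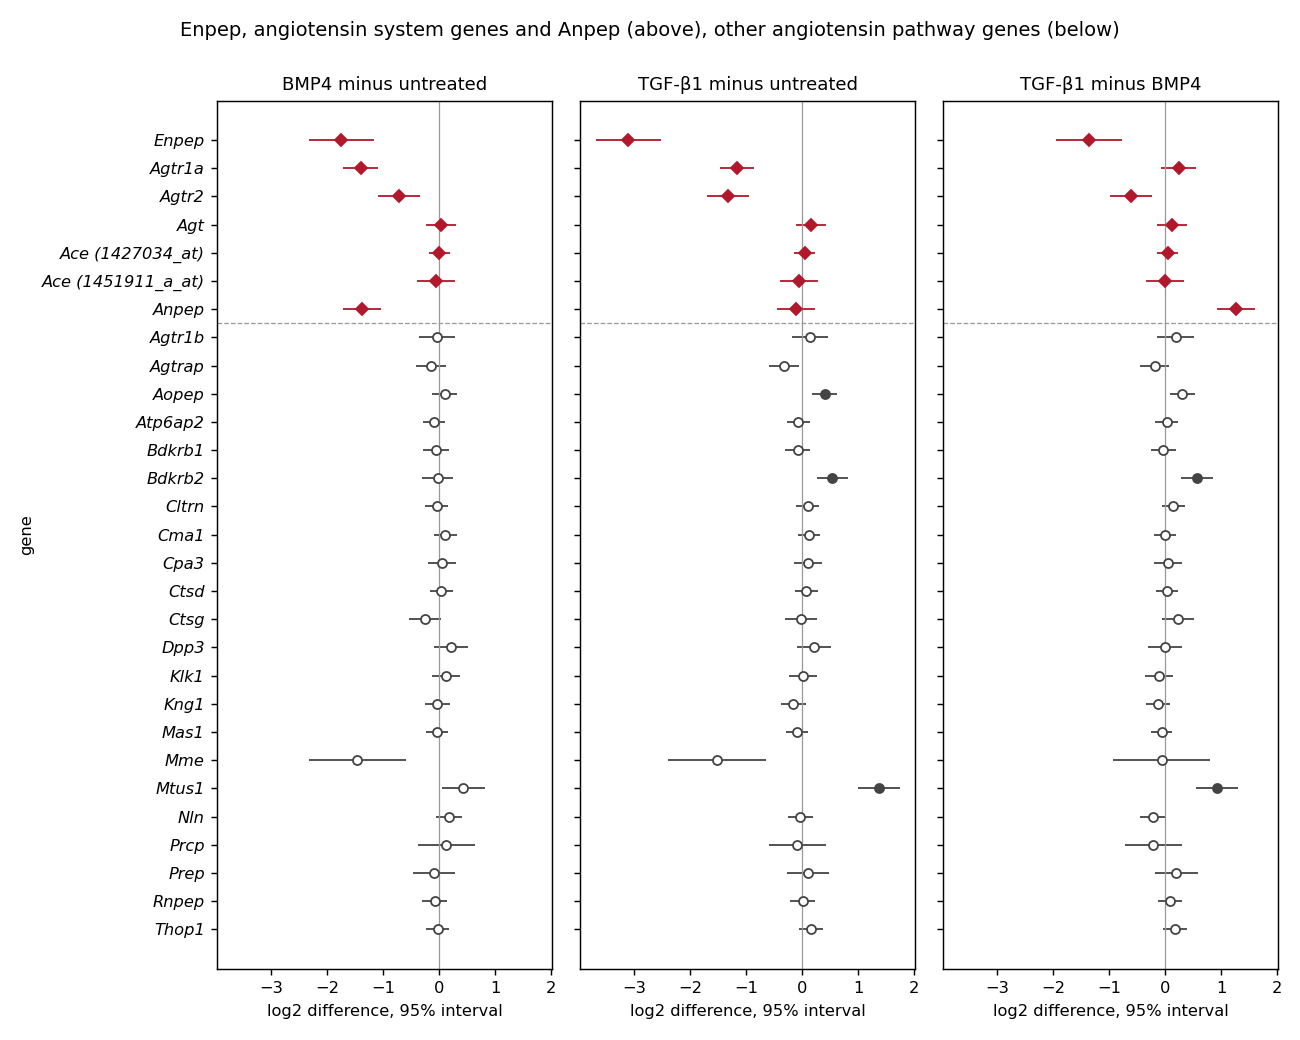
Log2 differences (x axis) of the 7 probe sets of the 6 genes (above) and of 22 other angiotensin pathway genes (below) in 3 comparisons, with 95% intervals from limma over 9 arrays. Red diamonds are the chosen genes, filled circles passed the test and open circles did not. Enpep reaches -3.10 with TGF-β1, and Mtus1 (1.37) and Mme (-1.52) lie farthest from 0 among the other genes.

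Called means an adjusted p under 0.05 in limma's fit over all 45037 probe sets. By that rule 4 of the 7 probe sets were called with BMP4 (Enpep, Agtr1a, Agtr2 and Anpep, all lower), where 5.44% of all probe sets were called and 3.13% were lower. With TGF-β1, 3 were called (Enpep, Agtr1a and Agtr2, all lower), against 4.43% of all and 2.60% lower. Between the factors 2 were called (Enpep lower, Anpep higher with TGF-β1), against 6.91% of all (3.49% lower, 3.41% higher), and Agtr2 made 3 when the replicate number was a block. The arrays did not overlap for 4, 3 and 3 of the 7 in these comparisons, beside 20.0%, 21.8% and 25.5% of all probe sets. Since the genes were picked from these comparisons, nothing is read from these counts. Leaving out single arrays gave 3 to 4 with BMP4, 3 with TGF-β1 throughout, and 1 to 3 between the factors, the 1 without BMP4 array 1. Treatment held 93.7% of the variance for Enpep, 93.5% for Agtr1a, 92.6% for Anpep and 87.6% for Agtr2, but 20.2% for Agt.

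The other genes of the angiotensin and kinin system, which make, cut or receive these peptides, were taken as a list of 26, of which 22 were measured (the rest were not analysed here). With TGF-β1, 3 of the 22 rose and 0 fell, where 6.75% of all genes were called (2.54% higher, 4.21% lower). With BMP4, limma called 0 of 22, where 7.96% of all genes were called (3.45% higher, 4.51% lower). Of the 22, 2 had an unadjusted p under 0.05 with BMP4, and the test used in the study's methods, after Benjamini-Hochberg adjustment, called 0. Between the factors 2 of 22 were higher with TGF-β1, where 10.1% of all genes were called (4.73% higher, 5.38% lower). The median difference over the list was -0.029 with BMP4, 0.045 with TGF-β1 and 0.030 between the factors, beside 0.0026, 0.0096 and 0.0062 over all genes.

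Mtus1, whose products bind the tail of the type 2 receptor, had the largest called change on the list. Its untreated arrays stood at -0.51, -0.069 and -0.52, its BMP4 arrays at 0.38, 0 and -0.18 and its TGF-β1 arrays at 1.09, 1.13 and 0.78. The TGF-β1 arrays lay above all others, opposite in direction to Agtr2 itself. Mtus1 rose 2.58-fold with TGF-β1, by 1.37 ± 0.17 (adjusted p = 0.0022), and was 0.93 ± 0.17 higher with TGF-β1 than with BMP4 (adjusted p = 0.0088, and 0.065 without the 3 arrays numbered 2). With BMP4 the difference was 0.43 ± 0.17 (adjusted p = 0.21). Both other Mtus1 probe sets also rose with TGF-β1 (0.80 and 1.40), and the second of them rose with BMP4 (0.52 ± 0.088, adjusted p = 0.0075). Between the factors the second was called (0.88 ± 0.088, adjusted p = 0.00033) and the first was not (0.56 ± 0.16, adjusted p = 0.077).

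Mme encodes neprilysin, a surface peptidase that cuts angiotensin I, kinins and natriuretic peptides. Its untreated arrays stood at 0.85, 2.10 and 0.56, its BMP4 arrays at -0.26, 0 and -0.60 and its TGF-β1 arrays at -0.58, 0.32 and -0.79. Untreated arrays lay above all treated arrays, with untreated array 2 highest as for Enpep. The differences were -1.52 ± 0.39 with TGF-β1 (adjusted p = 0.059) and -1.46 ± 0.39 with BMP4 (adjusted p = 0.062), neither of which passed. Its other probe set stood at -1.13 and -1.20 (adjusted p = 0.16 and 0.14). In the fit with a block for the replicate number, the TGF-β1 difference passed (adjusted p = 0.0016), which made 4 of 22 called, where the block called 13.4% of all genes. In the same fit the BMP4 difference passed too (adjusted p = 0.0013, with 13.1% of all genes called). Both passed without the 3 arrays numbered 2 (adjusted p = 0.0086 with TGF-β1 and 0.013 with BMP4) and with quantile normalization (0.028 and 0.032). The TGF-β1 difference also passed without untreated array 3 (-1.82, adjusted p = 0.042) and without TGF-β1 array 2 (-1.85, adjusted p = 0.043). The BMP4 difference passed without untreated array 3 (-1.76, adjusted p = 0.045) and without TGF-β1 array 2 (-1.46, adjusted p = 0.047).

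**Figure D3:**
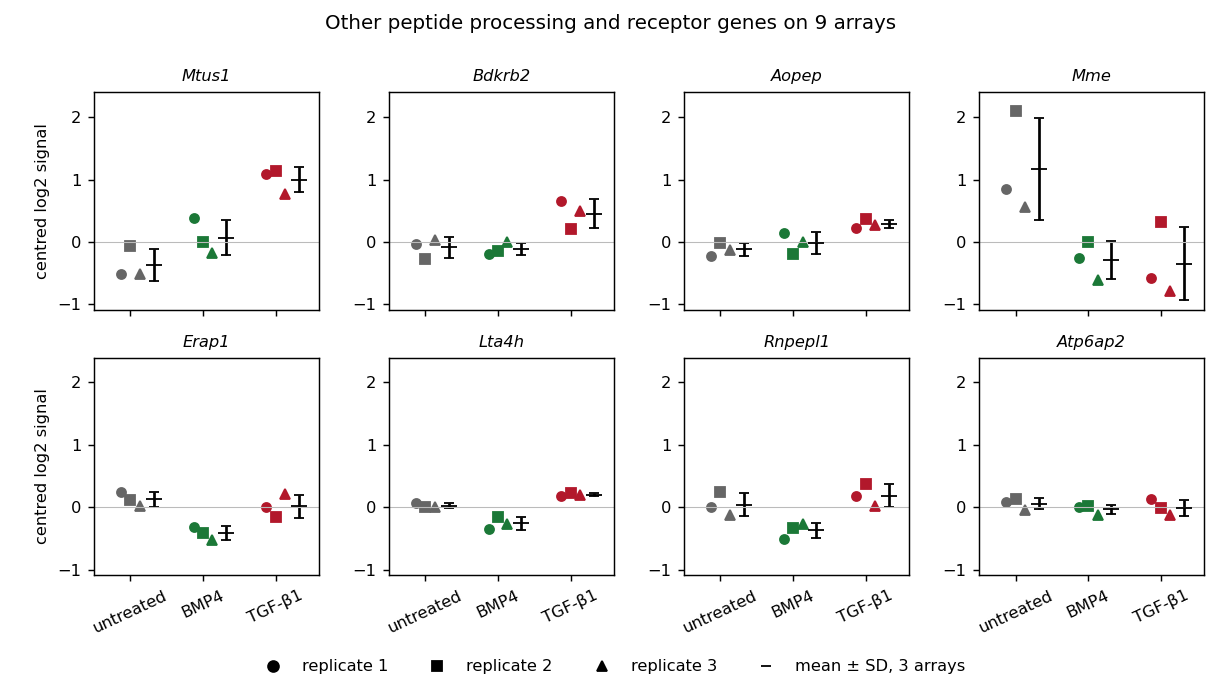
Centred log2 signal (y axis) by treatment (x axis) of 8 genes of the angiotensin pathway list or the aminopeptidase family, 1 point per array, shaped by replicate number, with the mean ± SD of 3 arrays. Mtus1 is high with TGF-β1, and Mme is high in untreated cultures with array 2 at 2.10.

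The other called genes of the list changed less. Bdkrb2, the bradykinin B2 receptor, rose by 0.54 ± 0.13 with TGF-β1 (adjusted p = 0.041) and was 0.57 ± 0.13 higher with TGF-β1 than with BMP4 (adjusted p = 0.024). The first call was lost when any 1 of 7 arrays was left out, all but untreated 3 and TGF-β1 2 (adjusted p 0.056 to 0.135), and the second without BMP4 1, BMP4 2, TGF-β1 1 or TGF-β1 3 (0.083 to 0.095). The other Bdkrb2 probe set stood at 0.091 ± 0.11 with TGF-β1 (adjusted p = 0.71). Aopep, aminopeptidase O, rose by 0.41 ± 0.10 with TGF-β1 (adjusted p = 0.0499), a call lost without any 1 of 7 arrays, all but BMP4 1 and BMP4 2 (0.067 to 0.159), and none of its 3 other probe sets was called. Among genes that did not pass with TGF-β1, Agtrap, which lowers type 1 receptor signalling, stood at -0.33 ± 0.12 (adjusted p = 0.17). The other Agtrap probe set stood at -0.011 ± 0.10 (adjusted p = 0.97). The Mas receptor gene Mas1 stood at -0.094 ± 0.086 (adjusted p = 0.61). Agtr1b, the second mouse type 1 receptor gene, stood at 0.14 ± 0.14 (adjusted p = 0.65) and the prorenin receptor gene Atp6ap2 at -0.064 ± 0.089 (adjusted p = 0.75).

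Enpep and Anpep belong to the M1 family of zinc aminopeptidases, and 8 of the 9 other family members listed were measured. With BMP4, 1 of 8 fell, where 7.96% of all genes were called: Erap1, which trims peptides for antigen presentation, by -0.54 ± 0.11 (adjusted p = 0.018). That call was lost without untreated 1, BMP4 2 or BMP4 3 (0.060 to 0.069). With the block 2 of 8 fell, the other being Rnpepl1 (-0.41, adjusted p = 0.034, and 0.091 without the block). With TGF-β1 1 of 8 rose, which was Aopep, where 6.75% of all genes were called. Between the factors 3 of 8 were higher with TGF-β1, where 10.1% of all genes were called: Lta4h, leukotriene A4 hydrolase, by 0.46 ± 0.075 (adjusted p = 0.0051), Rnpepl1 by 0.55 ± 0.12 (adjusted p = 0.022) and Erap1 by 0.43 ± 0.11 (adjusted p = 0.042). Rnpepl1 was not called without BMP4 1, BMP4 2, TGF-β1 1 or TGF-β1 2 (0.061 to 0.095), nor Erap1 without any 1 of 7 arrays, all but untreated 3 and TGF-β1 2 (0.051 to 0.141). The other probe sets of Erap1 and Rnpepl1 were not called, and 1 of the other 2 of Lta4h was called both between the factors (0.39 ± 0.071, adjusted p = 0.0098) and as lower with BMP4 (-0.32 ± 0.071, adjusted p = 0.030).

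Genes that carry or limit the signal of the type 1 receptor formed a list of 20, of which 17 were measured. With BMP4 2 of 17 rose, where 3.45% of all genes rose, both regulators that switch off the G proteins of this receptor: Rgs5 by 1.51 ± 0.099 (adjusted p = 7.2e-05) and Rgs2 by 1.17 ± 0.21 (adjusted p = 0.011). With TGF-β1 3 rose and 1 fell, where 6.75% of all genes were called, and 7 of 17 were called with the replicate block, which called 13.4% of all genes. Rgs5 rose by 0.81 ± 0.099 (adjusted p = 0.0021) and Rgs2 by 1.13 ± 0.21 (adjusted p = 0.017, lost without untreated 2, TGF-β1 1 or TGF-β1 3 at 0.055 to 0.072). Plcb1, a phospholipase C that G proteins activate, fell by 0.56 ± 0.12 (adjusted p = 0.029), a call lost without any 1 of 5 arrays (untreated 1, untreated 2, BMP4 1, TGF-β1 1 or TGF-β1 2). Over all the alternative settings listed under data processing, the Plcb1 difference ran from -0.67 to only -0.076. That of Rgs5 with TGF-β1 ran from 0.42 to 0.95. Between the factors 2 of 17 were lower with TGF-β1, where 10.1% of all genes were called: Rgs5 by -0.70 ± 0.099 (adjusted p = 0.0022) and Plcb4 by -0.70 ± 0.16 (adjusted p = 0.024), and 6 were called with the block, which called 16.8% of all genes. The Plcb4 call was lost without BMP4 2, BMP4 3 or any 1 of the 3 TGF-β1 arrays (0.068 to 0.094). Its difference ran from -0.88 to -0.32 over all alternative settings. Rgs5 is also a marker of pericytes.

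The genes whose pattern was nearest to that of Enpep were found by the root mean square difference of their centred log2 values from those of Enpep over the 9 arrays. Over 18192 genes its median was 1.33, and a gene at 0 on every array would have had 1.31. The nearest gene was Maf, a transcription factor, at 0.42, followed by Sned1 (0.49), Gm3515 (0.58), Selenbp1 (0.60), Ddit4l (0.67), Lepr (0.67), Otor (0.68) and Scara3 (0.72). Maf had means of 0.98 ± 0.54 untreated, 0.0026 ± 0.0045 with BMP4 and -1.26 ± 0.075 with TGF-β1 (SD, n = 3), with untreated array 2 highest as for Enpep. Lepr, the leptin receptor, was near Enpep by another route, since its BMP4 and TGF-β1 means were alike at -0.54 and -0.56. Within the chosen set Agtr2 ranked 12 at 0.75 and Agtr1a 84 at 0.95, whereas Ace (rank 9098), Agt (14612) and Anpep (16852) lay beyond the median gene. All 9 arrays share the treatment groups, so a near pattern is a description of these arrays.

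**Figure D4:**
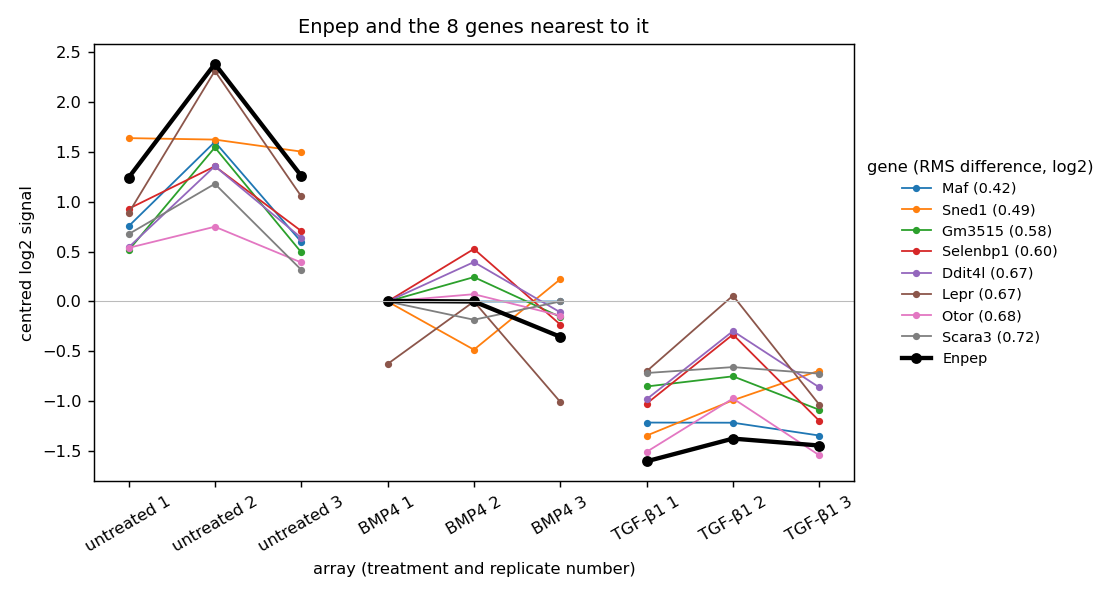
Centred log2 signal (y axis) on the 9 arrays (x axis, grouped by treatment) for Enpep and the 8 genes whose values differ least from it. Most step down from untreated to BMP4 to TGF-β1 and peak at untreated array 2, and Enpep has the widest range.

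The growth factor response and markers of other cells were read on the same arrays. BMP4 raised the feedback inhibitor Smad6 by 1.79 ± 0.13 (adjusted p = 0.00011), and TGF-β1 raised Pmepa1, a TGF-β target, by 1.99 ± 0.14 (adjusted p = 0.00014). Among all genes 7.96% were called with BMP4 and 6.75% with TGF-β1, and with the block 13.1% and 13.4%. Of 9 sclerotome markers 4 fell with BMP4 (6 with the block) and 1 with TGF-β1 (2 with the block). Of 9 markers of pericytes, a cell type known for aminopeptidase A, 3 rose and 1 fell with BMP4 and 2 rose and 1 fell with TGF-β1. The mean of their centred log2 values per array ran from -0.19 to -0.023 untreated, -0.12 to 0.14 with BMP4 and -0.0030 to 0.063 with TGF-β1. With BMP4 Rgs5 rose by 1.51 (above), Cspg4 by 0.80 ± 0.15 (adjusted p = 0.014, lost without untreated 3 at 0.051) and Kcnj8 by 0.65 ± 0.14 (adjusted p = 0.025, lost without any 1 of 4 arrays at 0.077 to 0.081). Pdgfrb fell with BMP4 by -1.05 ± 0.22 (adjusted p = 0.020, lost without untreated 1 or untreated 2 at 0.062 to 0.072) and stood at 0.028 ± 0.22 with TGF-β1 (adjusted p = 0.96). The markers called with TGF-β1 went both ways: Rgs5 (above) and Mcam rose and Abcc9 fell. Without single arrays Mcam stood at 0.80 to 0.98 and Abcc9 at -1.04 to -0.79. Each call was lost without any 1 of 3 arrays (adjusted p 0.061 to 0.074 for Mcam and 0.053 to 0.058 for Abcc9). Of 9 endothelial and 6 B cell precursor markers limma called 0 in all 3 comparisons, with at most 1 in a list at an unadjusted p under 0.05. The block called 1 endothelial marker, higher with BMP4, and 0 otherwise. Of 7 macrophage markers Cd68 fell with TGF-β1 by -0.46 ± 0.089 (adjusted p = 0.019, and 3 of 7 fell with the block), a call lost without untreated 1, TGF-β1 1 or TGF-β1 3 (0.071 to 0.076). The macrophage mean was 0.48 on untreated array 2, where Enpep, Mme, Agtr2 and Agtr1a were highest, and at most 0.13 on the other 8 arrays. The sclerotome mean was also highest on that array, at 0.47, and at most 0.18 on the other 8. Of 6 kidney markers Wt1 fell with BMP4 by -1.42 ± 0.14 (adjusted p = 0.00050) and Emx2 by -0.79 ± 0.17 (adjusted p = 0.023, lost without any 1 of 5 arrays, at 0.051 to 0.085), and none was called with TGF-β1, where 2 had an unadjusted p under 0.05 and the block called 0. Of 7 skeletal muscle markers Myf5 rose with BMP4 by 0.83 ± 0.11 (adjusted p = 0.0021), and with TGF-β1 0 were called and 3 fell with the block, where 4 had an unadjusted p under 0.05. Of 6 neural markers Sox2 rose with BMP4 by 1.44 ± 0.20 (adjusted p = 0.0029), and with TGF-β1 0 were called by limma and 2 with the block, where 2 had an unadjusted p under 0.05. Of 5 erythroid markers limma called 0 in all 3 comparisons, with the block too, and 3 had an unadjusted p under 0.05 with BMP4 and 2 with TGF-β1. Their median difference was -0.73 with BMP4 and -0.61 with TGF-β1, and their mean was 0.66, -0.18 and 0.92 on the untreated arrays against -0.33 to 0.14 on the treated ones. Between the factors 5 of 9 sclerotome markers (3 higher with TGF-β1, 2 lower, 8 called with the block) were called. Of 9 pericyte markers 5 were called (2 higher, 3 lower, 5 with the block). The macrophage, skeletal muscle and neural lists had 1 lower each and the kidney list 1 higher. In that comparison 10.1% of all genes were called, and 16.8% with the block. The part of these cells in the differences of Enpep and the other genes was not tested.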

How the data were processed

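RNA from 9 sclerotome micromass cultures was hybridised to Affymetrix mouse genome arrays. The authors deposited log2 values made with RMA, per the submitters' processing notes, with the version not given in the sources used here. All 45101 probe sets had a median of 0 across the arrays (tolerance 1e-06), so levels and signal over background are not known. The 64 control probe sets were left out, which left 45037, and no filter on low signal was possible. The number of arrays limits the precision.

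limma 3.58.1 in R 4.3.3 fitted the 3 treatments over all 9 arrays, with moderated variances. P values are two-sided and adjusted over 45037 probe sets (Benjamini-Hochberg), and the fit was tested on simulated data. Probe sets were named from the platform annotation: 34945 had 1 symbol, 932 several and 9160 none. Other genes are represented by their most variable probe set. The 6 genes and all lists were chosen with earlier results of these data known. Named genes are the 6 chosen genes, every called gene of the pathway and aminopeptidase lists, and the 8 genes nearest to Enpep. Mas1, Atp6ap2 and Mme are named whatever their values. For each further list the rule was up to 3 called genes with the smallest adjusted p per comparison, and it was not followed throughout. Called sclerotome markers are counted without names, and not every called marker of the other cell types is named. Agtrap, Agtr1b, Elovl6 and Fam241a were named outside these rules, after their values were seen.

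Deviations from group means over all probe sets correlated between same-numbered arrays at 0.14, 0.49 and 0.28 (untreated and TGF-β1), 0.29, 0.50 and 0.38 (BMP4 and TGF-β1) and -0.049, 0.50 and 0.24 (untreated and BMP4). The experiment was set up on 3 occasions, but the sources used here do not tie the numbers to them. Every correlation of same-numbered arrays was over 0.1 in both comparisons that involve TGF-β1, and not in that of BMP4 with untreated. Arrays of different numbers correlated at -0.49 (untreated 2 with BMP4 3) to 0.36 (untreated 1 with BMP4 3). The main fit had no term for the replicate number in any comparison. Calls and adjusted p values come from that unpaired fit unless the block is named. The block is 1 term over all 9 arrays, and its values are given as those of an alternative. Alternatives were the replicate block, 2-group fits, leaving out arrays, quantile normalization, array weights, a robust variance prior, array centring, gene means, the more variable probe sets and the methods' t-test. Promoter sequences came from RefSeq (GRCm38.p6).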

Additional observations from a re-analysis of the deposited data

How the results depend on the processing

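The numbers of probe sets called depended on the setting. Among 1949 recomputed values no called difference changed sign, while 21 values of Agt (with BMP4) and Ace, whose intervals include 0, did. With BMP4, 2449 probe sets were called, 4069 with the replicate block, 1617 from those 2 groups alone, 1200 without the 3 arrays numbered 2, 1431 to 2262 without single arrays, and 433 and 0 by the methods' t-test (2-fold, and after Benjamini-Hochberg). With TGF-β1 the counts in the same order were 1993, 4029, 1172, 888, 867 to 2053, 253 and 0. Between the factors they were 3110, 5252 with the block, 1819 without the arrays numbered 2, 1877 to 3330, 543 and 11. Of the 22 pathway genes, the 0 called with BMP4 became 1 with the block, without the arrays numbered 2, with quantile normalization and over the more variable probe sets (0 to 1 without single arrays). The 3 with TGF-β1 became 1 from 2 groups, 1 with gene means, 1 and 0 by the t-test, and 1 to 3 without single arrays. The 2 between the factors became 1 without the arrays numbered 2, 1 with gene means, 0 and 0 by the t-test, and 1 to 2 without single arrays. The Enpep difference kept its direction under all of these alternatives, and quantile normalization moved it to -4.02 with TGF-β1 and -1.80 between the factors. The cause of these moves was not tested. With values centred, the signal over background could not be used to limit the comparisons.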

Other observations

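Other peptidases of the cell surface, 17 measured of 18 listed, moved in both directions. With BMP4 1 rose and 2 fell (8 called with the replicate block), with TGF-β1 2 rose and 3 fell (7 with the block), and between the factors 1 was higher and 2 were lower with TGF-β1 (5 with the block). Among all genes 7.96%, 6.75% and 10.1% were called in these comparisons, and 13.1%, 13.4% and 16.8% with the block. Fap, a serine peptidase of fibroblasts, fell by 0.86 ± 0.14 with TGF-β1 (adjusted p = 0.0081) and by 0.60 ± 0.14 with BMP4 (adjusted p = 0.033, lost without any 1 of 5 arrays at 0.051 to 0.115). Ece2, a relative of neprilysin, rose by 0.49 ± 0.074 with TGF-β1 (adjusted p = 0.0067) and by 0.35 ± 0.074 with BMP4 (adjusted p = 0.023, lost without untreated 2, untreated 3, BMP4 1 or BMP4 2 at 0.052 to 0.090). Cpxm2, a carboxypeptidase-like protein, went opposite ways: it rose by 0.59 ± 0.11 with TGF-β1 (adjusted p = 0.014, lost without TGF-β1 1 or TGF-β1 3 at 0.058) and fell by 0.54 ± 0.11 with BMP4 (adjusted p = 0.016, lost without any 1 of 4 arrays at 0.052 to 0.070). Between the factors Cpxm2 was 1.13 ± 0.11 higher with TGF-β1 (adjusted p = 0.00022) and Ece1, endothelin-converting enzyme, was lower by -0.51 ± 0.091 (adjusted p = 0.0082). Adam17, which sheds surface proteins, was lower by -0.87 ± 0.22 (adjusted p = 0.046), a call lost without any 1 of 6 arrays at 0.068 to 0.162.

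Of the 12 measured protein-coding genes nearest to the 6 chosen genes, 2 were called in each comparison, where 7.96% (BMP4), 6.75% (TGF-β1) and 10.1% (between the factors) of all genes were called. Elovl6, the measured gene next to Enpep and an enzyme of fatty acid elongation, fell by 0.59 ± 0.13 with TGF-β1 (adjusted p = 0.037), a call lost without any 1 of 6 arrays at 0.055 to 0.129, and stood at -0.46 ± 0.13 with BMP4 (adjusted p = 0.087, and 0.020 with the block). Fam241a, the nearest measured gene on the other side of Enpep, rose by 0.83 ± 0.15 with BMP4 (adjusted p = 0.010). With TGF-β1 it stood at 0.16 ± 0.15 (adjusted p = 0.61). Between the factors it was lower with TGF-β1 by -0.67 ± 0.15 (adjusted p = 0.024), a call lost without any 1 of 6 arrays at 0.051 to 0.102.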
